A study of Mus musculus with 2 samples.

Results

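The genes described here are 10 that mark the sinusoidal endothelial cells of the liver, set among all 21938 protein-coding genes of chromosomes 1 to 19, X and Y. They are Stab1, Stab2, Lyve1, Mrc1, Kdr, Tek, Egfl7, Pecam1, Cdh5 and Oit3, and they were taken as a list of symbols, without use of any measured value. The measurement is chromatin immunoprecipitation sequencing (ChIP-seq) of EP300, an enzyme that acetylates histones and is brought by transcription factors to enhancers and promoters in use. The samples are 1 group of 2 replicates of whole postnatal liver from mice of strain B6NCrl at age 0 days, with no genetic change or treatment named in the labels and with the sex not collected. The labels number them as biological replicates 1 and 2 but name 1 biosample and 1 donor for both, so that the spread between them may be technical. The labels do not say whether several animals were pooled. Every peak summit of the authors' optimal list that lay within 50 kb of any annotated transcription start site (TSS) of a gene was taken, which gave 69 summits of the 26844 analysed, and no summit belonged to 2 of the genes.

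Liver sinusoids are lined by a thin, perforated endothelium that lies between the blood and the hepatocytes. Its cells carry scavenger and lectin receptors that clear hyaluronan, modified proteins and glycoproteins from the blood, and they respond to vascular endothelial growth factor and angiopoietins as other endothelial cells do. Endothelial enhancers in general are known to be bound by ETS factors, alone or with FOX, SOX and GATA factors. Several of the 10 genes are not exclusive to this cell type: Stab1, Lyve1 and Mrc1 are also known from macrophages, Pecam1 from platelets and leukocytes, and Tek and Kdr from early blood-forming cells or their precursors. The tissue was not sorted, so that for each summit the cell type that carried EP300 was not measured, and fewer cells of a type and less EP300 per cell cannot be told apart.

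The signal value is the authors' score for each peak from their peak caller. It ran from 7.32 to 633 in the optimal list, with a median of 38.3, its scale is not stated, and it is used here to rank and describe peaks within a list. A rank of 1 is the strongest peak. Replicate values are those of the peak in that replicate's own list, which overlapped the optimal peak by at least 1 base and had the nearest summit. Distances are from the 5′ end of the gene in GENCODE release M21, upstream or downstream in the direction of transcription, unless another start is named. Coordinates are 1-based on mm10.

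The windows of 101 bases around 8 of the summits are printed first, because they hold the letters on which the sequence description rests. They are read 5′ to 3′ on the plus strand from the GRCm38 genome, the assembly of mm10. Capitals mark each match, on either strand, to the searched motifs. The FOX and ETS composite was AACAGGAA. ETS letters were CCGGAAG and, as the other form searched, CAGGAAG. For GATA the letters were AGATAA with TGATAA as the other form searched. SOX letters were ACAATG with ACAAAG as the other form searched. FOX letters were TGTTTAC and, as the other form, TATTTAC. AP-1 was searched as TGANTCA, MAF as TGCTGAC, RBPJ as TGGGAA, CEBP as TTGCNNAA and HNF4 as CAAAGTCCA. The second ETS form can overlap the composite. The first 2 windows are the strongest summits whose nearest TSS is that of Kdr or Stab2, and the other 6 are the summits with the composite letters outside untranslated exons.
Kdr, intron 10, chr5:75962321-75962421: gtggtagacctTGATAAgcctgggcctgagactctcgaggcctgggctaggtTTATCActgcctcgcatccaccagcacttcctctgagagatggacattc
Stab2, intron, chr10:86923762-86923862: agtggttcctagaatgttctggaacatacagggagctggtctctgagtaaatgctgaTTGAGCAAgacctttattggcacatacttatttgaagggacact
Lyve1, upstream, chr7:110877064-110877164: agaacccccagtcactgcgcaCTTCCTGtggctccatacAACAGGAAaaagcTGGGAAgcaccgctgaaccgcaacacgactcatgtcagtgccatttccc
Egfl7, upstream, chr2:26578577-26578677: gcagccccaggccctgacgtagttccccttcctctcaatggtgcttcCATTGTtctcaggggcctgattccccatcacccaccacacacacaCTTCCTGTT
Mrc1, promoter, chr2:14229279-14229379: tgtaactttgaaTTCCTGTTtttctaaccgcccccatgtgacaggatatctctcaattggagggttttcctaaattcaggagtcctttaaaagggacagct
Mrc1, far upstream, chr2:14185529-14185629: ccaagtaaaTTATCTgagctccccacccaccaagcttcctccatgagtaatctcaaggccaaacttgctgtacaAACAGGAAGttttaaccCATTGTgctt
Pecam1, upstream in Milr1, chr11:106759133-106759233: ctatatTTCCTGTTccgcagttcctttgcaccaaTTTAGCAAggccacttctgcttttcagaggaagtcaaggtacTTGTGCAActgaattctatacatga
Pecam1, upstream in Cep95, chr11:106795924-106796024: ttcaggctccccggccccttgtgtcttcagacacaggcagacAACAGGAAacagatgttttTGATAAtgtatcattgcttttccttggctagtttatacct

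All 10 genes had at least 1 EP300 summit within 50 kb, so 0 had none, where 65.9% of protein-coding genes had one. Within 10 kb 9 of the 10 had one, all but Cdh5, where 41.0% of protein-coding genes did, and within 1 kb of a TSS 7 did (Stab1, Lyve1, Egfl7, Tek, Pecam1, Mrc1 and Oit3), where 23.8% did. The 3 without a summit within 1 kb were Stab2, Kdr and Cdh5. Each of the 10 had a summit whose nearest protein-coding TSS was its own, where 41.1% of genes had one. These shares describe 1 list of peaks, and the genes were chosen by name, so no test was made of them.

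The genes differed in how many summits they had. Lyve1 had 12, Stab2 and Egfl7 11 each, Pecam1 9, Stab1 7, Kdr 6, Oit3 5, Mrc1 4, Tek 3 and Cdh5 1. The median of 6.5 stood beside a median of 2 over all protein-coding genes. Genes with start sites far apart have wider windows: the median width was 120 kb for the 10 genes, with 229 kb at Stab2 as the widest, and 103 kb for all. Per 100 kb of window the median was 4.80 for the 10 genes and 1.07 for all genes, with 12.0 at Lyve1, 9.81 at Egfl7 and 0.912 at Cdh5. At least 12 summits, as at Lyve1, were found at 2.12% of protein-coding genes, and at least 3, as at Tek, at 39.5%. Summits within 300 bases of a stronger one, of which Lyve1 had several, were counted separately. Of the 12 at Lyve1, 1 was within 10 kb of a Lyve1 start and 10 matched in both replicates.

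**Figure D1:**
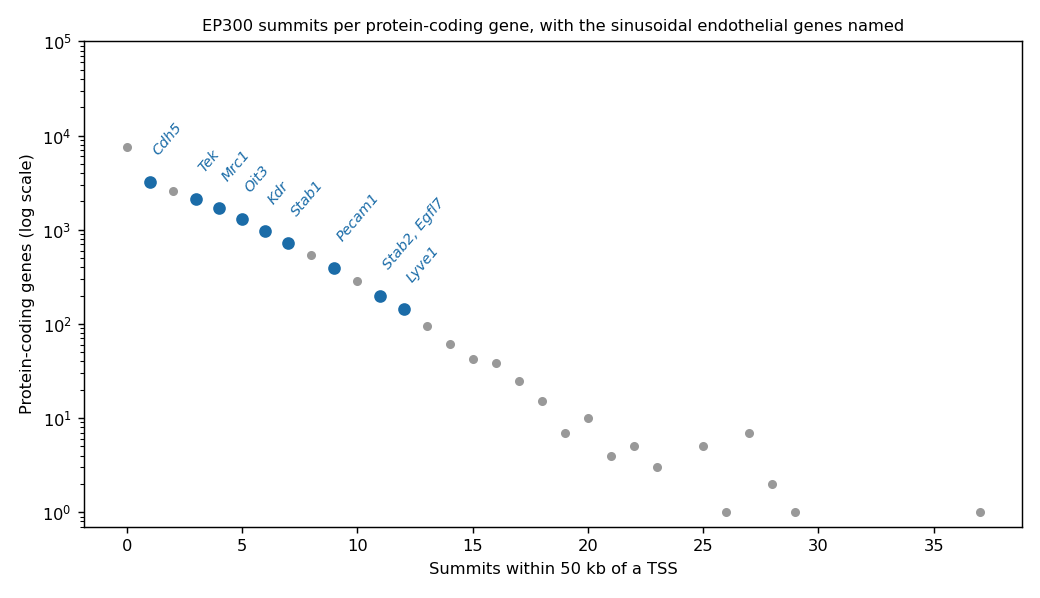
Number of protein-coding genes (vertical, log scale) with each number of EP300 summits within 50 kb of a TSS (horizontal); blue points carry the names of the 10 sinusoidal endothelial genes. Stab2, Egfl7 and Lyve1, with 11 or 12 summits, are the highest of the 10, other genes reach 37, and Cdh5, with 1, lies beside the genes that have none.

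The summits themselves were of ordinary strength. Their median signal was 33.5, below the 38.3 of all summits, and 27 of the 69 (39.1%) were in the upper 50% of the list. Of the 69, 4 were among the upper 10%, at Lyve1, Kdr and Stab2 (2 summits), so that 3 of the 10 genes had such a summit, where 17.6% of protein-coding genes did. Stab2 was the 1 gene of the 10 with 2 of them, where 5.33% of protein-coding genes had at least 2. The median over the genes of the strongest summit was 65.0, beside 68.3 over all genes with a summit. Of the 69 summits 20 were promoter summits of some protein-coding gene, within 1 kb of a TSS (23.4% of all summits were), 32 were in introns, 3 in exons and 14 between genes.

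Nearly all summits had a counterpart in both replicates. A peak of replicate 1 matched 69 of the 69 summits and a peak of replicate 2 matched 67 (97.1% in both), where 95.7% of all optimal peaks matched in both. With summits required to lie within 100 bases 54 matched, where 81.5% of all did, and with a reciprocal overlap of 50% 59 did, where 84.9% of all did. The conservative list held 55 of the 69 as the same peak (79.7%), where it held 74.4% of all optimal peaks. The 2 without a replicate 2 peak both lay at the promoter of Rnf141, downstream of Lyve1. The 69 summits rested on 66 distinct peaks of replicate 1 and the 67 on 61 of replicate 2, since 10 summits (14.5%) stood within 300 bases of a stronger one, where 8.47% of all summits did. The replicate lists hold 300000 peaks each and reach far into weak signal, and for 44 of the 69 (63.8%) the matched peak, that with the nearest summit, was among the highest 26844 in both replicates, where it was for 64.0% of all optimal peaks. With any overlapping peak among those highest counted as a match, 48 had one in both, where 67.9% of all optimal peaks did. Signal values were higher in replicate 1 at 61 of 67 summits and lower at 6, with a median log2 ratio of 0.96 (SD 0.62 across summits) beside 0.94 (SD 0.74) at all 25702 optimal peaks matched in both, so the ratio at the 10 genes was near that of all peaks.

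**Figure D2:**
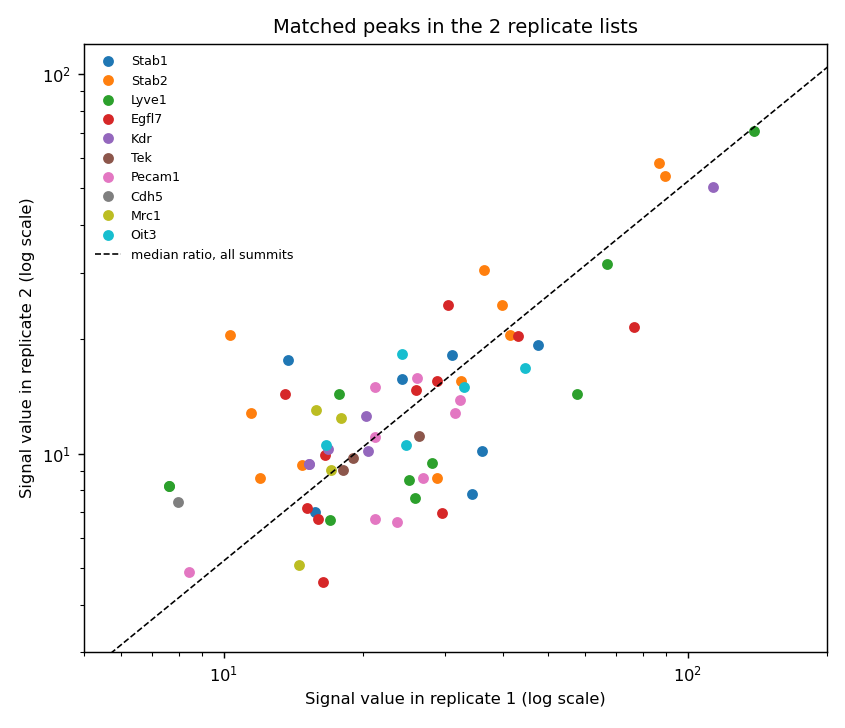
Signal value of the matched peak in replicate 1 (horizontal) and replicate 2 (vertical), both on log scales, for the 67 summits matched in both, coloured by gene; the dashed line is the median ratio over all optimal peaks. Points lie on both sides of that line, and the strongest, at Lyve1, Kdr and Stab2, are high in both lists.

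Stab2 and Stab1 encode stabilin-2 and stabilin-1, large scavenger receptors, of which stabilin-2 is a main receptor for hyaluronan clearance in liver sinusoids. Stab2 (chromosome 10, 86841198 to 87008025, minus strand) carried a strong summit inside the gene, in an intron 84.2 kb downstream of its 5′ end (summit 86923812), with a signal of 142 in the optimal list, 89.3 in replicate 1 and 53.9 in replicate 2. It ranked 2124 in the optimal list, 2259 in replicate 1 and 1926 in replicate 2, so it held nearly the same place in each. A second summit of like height lay 44.0 kb upstream (summit 87051976), with 144, 86.5 and 58.4, but its nearest TSS is that of 1700113H08Rik, 6.07 kb away. Of the 11 summits of Stab2, 10 had a Stab2 start as the nearest.

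Closer to the 5′ end, Stab2 had a row of moderate summits and none at the start itself. The strongest of the row stood upstream at 4.23 kb (47.4), 6.80 kb (61.3) and 24.9 kb (68.9), and in the gene 17.2 kb downstream (64.1). Their values in replicate 1 were 32.4, 41.4, 36.4 and 39.7, and in replicate 2 15.6, 20.5, 30.4 and 24.6 in the same order, and each was among the highest 26844 of both replicates. Weaker ones stood upstream at 7.0 kb (12.9) and 7.6 kb (25.0) and downstream at 15.0 kb (10.7) and 15.2 kb (33.6). Among these weaker ones, only that at 15.2 kb was among the highest 26844 of both replicates. At the 5′ end replicate 1 had a peak of 6.96 at rank 116473, and replicate 2 listed none within 1 kb. The signal at Stab2 thus lay away from its start in both replicates.

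Stab1 (chromosome 14, 31139013 to 31168641, minus strand) differed from Stab2 in having its own summit at the start, 0.040 kb upstream (summit 31168681), with a signal of 47.5. Replicate 1 gave 34.3 at rank 9319 and replicate 2 gave 7.83 at rank 30139, the largest log2 ratio of the 67 summits at 2.13. This promoter summit therefore rests more on replicate 1 than on replicate 2. It was the single Stab1 summit with Stab1 as the nearest gene. The other 6 lay nearer to the neighbouring genes: 4 at Nisch, with 69.7 as the strongest, and 2 at the promoter of Smim4, with 50.2 and 33.6.

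Lyve1 encodes a hyaluronan receptor of lymphatic and sinusoidal endothelium. Lyve1 (chromosome 7, 110850607 to 110863239, minus strand) had a promoter summit 0.063 kb upstream of its nearest start (summit 110863016), with a signal of 32.9, 25.1 in replicate 1 and 8.50 in replicate 2. A stronger summit lay 13.9 kb upstream in an intron of Mrvi1 (summit 110877114), with 73.8 in the optimal list, 57.7 in replicate 1 at rank 4352 and 14.4 in replicate 2 at rank 11993. Its window, printed above, holds the composite, an ETS and an RBPJ match. Of the 12 Lyve1 summits 4 had Lyve1 as the nearest gene, and these 2 were the strongest of them.

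The strongest summit within reach of any of the 10 genes was near Lyve1 but inside a neighbour. It lay 44.1 kb downstream of the 5′ end of Lyve1, in an intron of Rnf141 (summit 110819149), with 211, 139 and 70.7 and ranks of 1108, 1032 and 1267. Its nearest TSS is that of Rnf141, 2.13 kb away. Upstream, a summit of 98.5 stood 40.1 kb from Lyve1, also within an intron of Mrvi1, with 66.9 and 31.6 in the replicates. The high count at Lyve1 thus includes 8 summits that are nearer to Rnf141 or Mrvi1.

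Mrc1 encodes the mannose receptor, which takes up glycoproteins and is found on sinusoidal endothelium and macrophages. Mrc1 (chromosome 2, 14229392 to 14332057, plus strand) had 4 summits, of which none was in the upper 50% of the list. The promoter summit, 0.063 kb upstream (summit 14229329), had a signal of 21.4, with 14.5 in replicate 1 and 5.09 in replicate 2, where it ranked 96467. The other 3 had 33.6 in an intron 83.4 kb downstream, 27.0 at 24.9 kb upstream and 32.4 at 43.8 kb upstream, and the last of these is nearer to Tmem236. These 3 were among the highest 26844 of both replicates, and the promoter summit was among those of neither.

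Kdr encodes vascular endothelial growth factor receptor 2, the main receptor for that factor on endothelium. Kdr (chromosome 5, 75932827 to 75978458, minus strand) had 1 strong summit, in intron 10 of its protein-coding transcript, 16.1 kb downstream of the start (summit 75962371). Its signal was 163 in the optimal list, 114 in replicate 1 and 50.2 in replicate 2, with ranks of 1741, 1519 and 2146. A transcript annotated as a retained intron covers the same place as its exon 10. All 6 Kdr summits had Kdr as the nearest gene. The other 5 had signals of 7.54 to 32.6, of which the highest lay 3.61 kb downstream, and neither replicate listed a peak within 1 kb of the Kdr start.

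Tek encodes TIE2, the receptor for angiopoietins. Tek (chromosome 4, 94739289 to 94874976, plus strand) had a promoter summit 0.115 kb downstream of its 5′ end (summit 94739404) with a signal of 25.6, 18.1 in replicate 1 and 9.06 in replicate 2. Its strongest summit lay in an intron 64.1 kb downstream (summit 94803392), with 38.6, 26.3 and 11.1. Another, 48.0 kb upstream in an intron of Ift74, had 29.2. All 3 were moderate or weak in every list, and all 3 were among the highest 26844 of both replicates.

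Egfl7 encodes a protein that endothelial cells secrete into the vessel wall. Egfl7 (chromosome 2, 26580014 to 26593120, plus strand) had a row of upstream summits at 1.39 kb (61.4), 3.86 kb (37.1) and 8.01 kb (41.3). The nearest of them (summit 26578627) had 43.0 in replicate 1 at rank 6705 and 20.5 in replicate 2 at rank 7376. Its window holds a SOX match and the composite, and its ETS match overlaps the composite. A weaker summit stood at an internal Egfl7 start (24.8). The strongest summit of the window in the optimal list (103, with 76.5 and 21.6 in the replicates) lay 20.9 kb downstream in an intron of Agpat2, which encodes an enzyme of phospholipid and triglyceride synthesis. The Agpat2 promoter had one of 57.2, with 30.4 in replicate 1 and 24.7 in replicate 2, where it was the strongest of the window. Of the 11 summits 7 had Egfl7 as the nearest gene, and among these the one at 1.39 kb was the strongest.

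Pecam1 and Cdh5 encode the junction proteins PECAM1 and VE-cadherin, shared by endothelium of all vessels. Pecam1 (chromosome 11, 106654217 to 106750628, minus strand) had 2 intronic summits near the far end of the gene, 89.7 kb and 91.0 kb downstream, with signals of 46.7 and 45.4. The replicates gave 32.3 and 26.0 in replicate 1 and 13.8 and 15.8 in replicate 2. These 2 had an internal Pecam1 start as the nearest. The summit nearest to the 5′ end, 0.579 kb upstream, was weak (14.3, with 8.41 and 4.88) and lay 0.019 kb from a start of Milr1. The other 6 were nearer to Milr1, Polg2, Ddx5 or Cep95, with signals of 20.6 to 45.4.

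Cdh5 (chromosome 8, 104101625 to 104144511, plus strand) had the fewest summits and the lowest strongest signal of the 10 genes. Its one summit, in an intron 20.6 kb downstream (summit 104122214), had a signal of 9.14 at rank 26438 of 26844. The replicates gave 7.96 at rank 81050 and 7.47 at rank 32980, outside the highest 26844 of either. In the full replicate lists the strongest peak within 50 kb of a Cdh5 start had 10.4 in replicate 1, upstream of the gene at rank 46400, and 7.47 in replicate 2. The summit is absent from the conservative list, and with the peaks of either replicate alone, as many as the optimal list holds, Cdh5 had none.

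Oit3 encodes a protein with a zona pellucida domain that is used as a marker of liver sinusoidal endothelium. Oit3 (chromosome 10, 59422958 to 59441778, minus strand) had a compact group near its 5′ end, with a promoter summit 0.187 kb upstream (summit 59441965) and a stronger one 1.74 kb upstream (summit 59443520). The promoter summit had a signal of 48.1, with 32.9 in replicate 1 and 14.9 in replicate 2, and the upstream one 60.2, with 44.6 and 16.8. One more, at an internal start 10.7 kb downstream, had 42.4, with 24.3 and 18.3. The other 2 lay in an exon of the neighbouring gene Mcu at 5.39 and 5.63 kb upstream, with 35.9 and 14.6. All 5 were nearest to an Oit3 start, and all 5 were among the highest 26844 of both replicates.

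**Figure D3:**
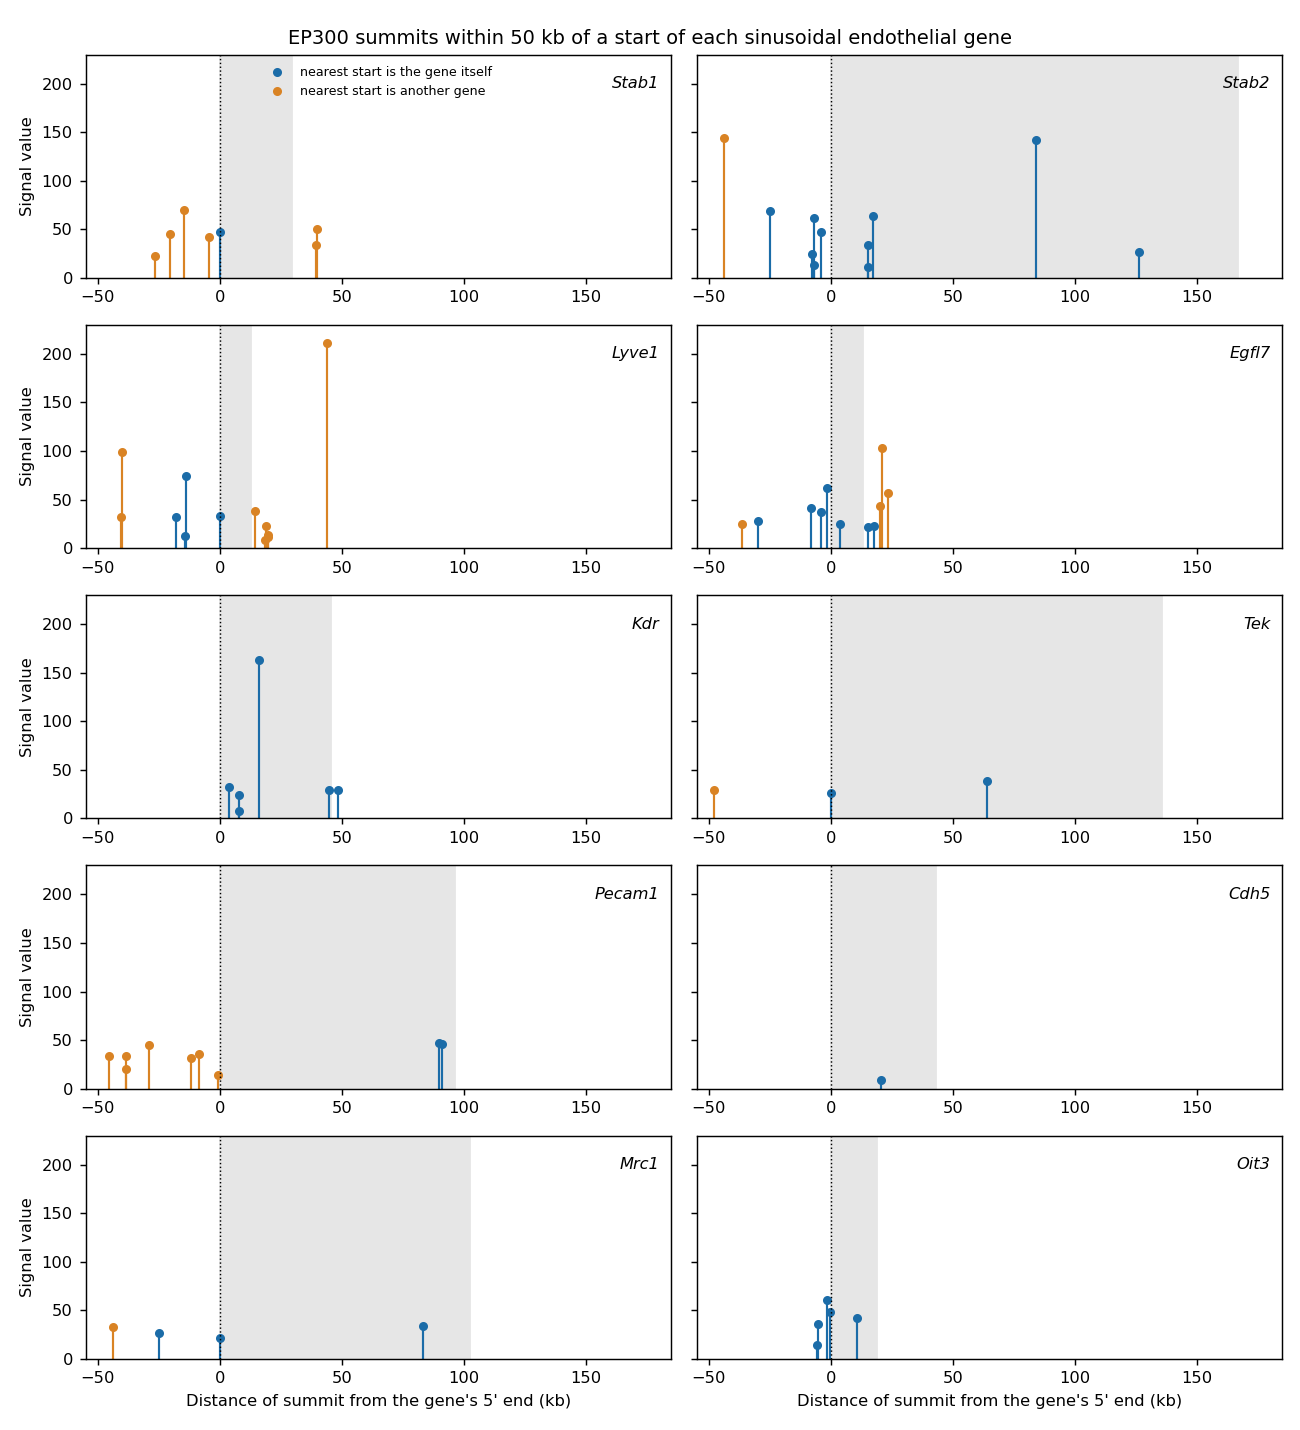
Signal value (vertical) of each EP300 summit against its distance from the 5′ end of the gene in kb (horizontal, upstream to the left), 1 panel per gene; grey marks the gene body, blue summits have the gene's own TSS as the nearest and orange ones that of another gene. The tallest blue lines stand inside Kdr and Stab2, the tallest orange ones near Lyve1 and upstream of Stab2, and Cdh5 has 1 short line.

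The strongest summits of Tek, Pecam1 and Mrc1 were within 50 kb only of starts of transcripts not annotated as protein-coding. Many of the summits lay nearer to a neighbouring gene. Of the 69, 41 had a start of one of the 10 genes as the nearest and 28 had that of another gene. The median signal was 32.9 for the 41 and 33.6 for the 28. Which gene a distal summit acts on was not measured.

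The 8-letter FOX and ETS composite AACAGGAA stood within 50 bases of 7 of the 69 summits (10.1%), where 692 of all 26844 (2.58%) held it. The 7 lay at 5 genes: Lyve1, Egfl7 and Tek with 1 each and Mrc1 and Pecam1 with 2 each. The Tek match is at the promoter summit, whose window overlaps an untranslated exon and is not printed. Of the 7, 4 were at summits nearest to one of the 10 genes, out of 41. Their signals ran from 21.4 to 73.8, so none was among the upper 10% of the list. A match is a description of the letters and does not show which protein was bound.

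Of the other motifs some were at a larger share of the 69 summits than of all summits and some at a smaller one. ETS letters were at 11 of 69 (15.9%, beside 10.5% of all summits), CEBP letters at 9 (13.0%, beside 8.93%) and RBPJ letters at 8 (11.6%, beside 9.84%). In the Egfl7 window and the far upstream Mrc1 window the ETS match overlaps the composite, so these counts are not separate from those of the composite. GATA letters were at 19 (27.5%, beside 32.8%), SOX letters at 9 (13.0%, beside 13.7%), FOX letters at 3 (4.35%, beside 4.82%), MAF letters at 2 (2.90%, beside 2.38%) and AP-1 letters at 1 (1.45%, beside 5.62%). HNF4 letters were at 0, where 0.738% of all summits held them. At the strong summits the letters were of other kinds than the composite: the Kdr intron 10 window holds a GATA match on each strand, the Rnf141 intron window near Lyve1 a GATA match, the Stab2 intron window a CEBP match and the summit 44.0 kb upstream of Stab2 a FOX and a CEBP match. The median GC content of the windows was 48.5%, beside 47.5% for all summits, and 2 of the 69 summits (2.90%) lay in repeat sequence, where 9.35% of all did.

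**Figure D4:**
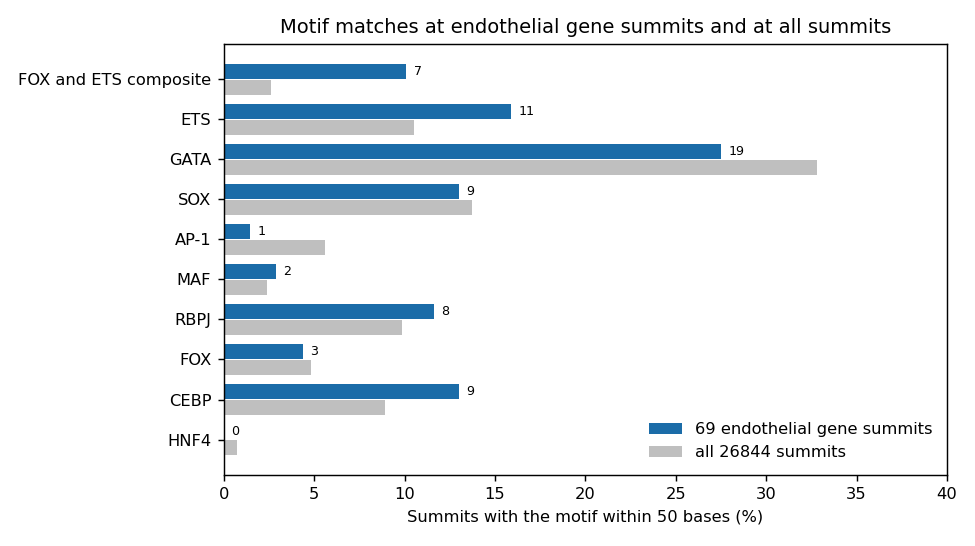
Share of summits with each motif within 50 bases, in percent, for the 69 summits of the 10 genes (blue, with their number) and for all 26844 summits (grey). The FOX and ETS composite stands at 10.1% against 2.58%, and AP-1 stands the other way, at 1.45% against 5.62%.

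Other endothelial genes were taken as 5 companion lists, chosen with earlier results of these data known. Of 51 genes 38 had a summit within 50 kb and 24 within 10 kb, where 65.9% and 41.0% of protein-coding genes did. Of 14 endothelial transcription factor genes 12 had one, with 268 at 36.4 kb from a start of Tal1, nearer to Pdzk1ip1, 151 at 32.7 kb from the nearest start of Gata4 but nearer to Fdft1, and 147 at 15.3 kb from Klf2, nearer to Gm10282. Sox17 and Nr2f2 had none. In this list Erg, an ETS factor gene, had 8 summits, all with an Erg start as the nearest, of which the strongest was intronic (141, with 92.7 and 47.2 in the replicates); Erg was chosen after its values were seen.

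Beside Kdr and Tek stood other genes of vessel growth factors and receptors. Of these 12 genes 9 had a summit within 50 kb, where 65.9% of protein-coding genes did. None of the 12 had one in the upper 10% of peaks, where 8 of the 51 companion genes and 17.6% of protein-coding genes did. The median strongest signal of the 9 was 39.4. The strongest stood in an intron of Eng, which encodes the endothelial co-receptor endoglin (121, with 76.0 and 43.8 in the replicates), 26.8 kb from the nearest start of Vegfa (62.8) and 11.2 kb from that of Flt1 (44.5). Tie1, the homologue of Tek, Vegfc and Angpt1 had none.

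Other junction and surface genes were taken beside Pecam1 and Cdh5. Of 9 genes 6 had a summit within 50 kb, where 65.9% of protein-coding genes did. The strongest were 154 near Esam, 89.5 near Ramp2 and 78.8 near Cldn5, each of them nearest to another gene (Msantd2, Wnk4 and Cdc45). Emcn, Robo4 and Mcam had none.

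All 7 of the other sinusoid genes had a summit within 50 kb and 6 within 10 kb, where 65.9% and 41.0% of protein-coding genes did. The strongest were 439 near Aqp1, a water channel gene also expressed by red cells and bile duct cells, 130 near F8, which encodes coagulation factor VIII, and 127 near Gpr182. Each of these 3 summits was nearest to another gene (Ghrhr, Cmc4 and Tac2). Of 9 genes of signals exchanged in the sinusoid 4 had a summit within 50 kb, beside the same 65.9%. The strongest were 54.0 at Notch1, 30.3 near Dll4 and 25.8 in Bmp6, while Wnt2, Wnt9b, Rspo3, Hgf and Jag1 had none.

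Markers of the other cells of the tissue, counted in the same way, stood on both sides of the 10 genes. All 7 erythroid genes had a summit, with a median strongest signal of 306 (160 to 604), and all 6 hepatocyte genes matched had one, with a median of 102 (23.2 to 173), beside 65.0 (9.14 to 211) for the 10 genes. Of 9 Kupffer cell genes 5 had one, with a median of 54.0, and 1 had one within 10 kb. The strongest were 150 near C1qa, 58.7 near Csf1r and 54.0 near Cd68, each nearest to another gene (Epha8, Hmgxb3 and Eif4a1), Adgre1 had 31.5 and Cd5l a lower one, and Clec4f, Vsig4, Marco and Timd4 had none. Of 6 stellate cell genes 3 had one, with a median of 34.6 (27.7 to 505). The strongest lay 3.92 kb upstream of Reln, with Reln as the nearest gene. Lrat, Pdgfrb and Dcn had none. Within 10 kb, 9 of the 10 sinusoidal endothelial genes had a summit, and 7 of 7 erythroid genes did. So did 5 of 6 hepatocyte genes and 2 of 6 stellate cell genes. Over all protein-coding genes the shares with a summit were 65.9% within 50 kb and 41.0% within 10 kb. The ranges of the strongest signal of the 10 genes and of the erythroid genes overlapped in 160 to 211, where Lyve1 (by the summit in Rnf141) and Kdr lay. The marker lists, too, were chosen with earlier results of these data known. The part of these other cells in the summits of the 10 genes was not tested.

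**Figure D5:**
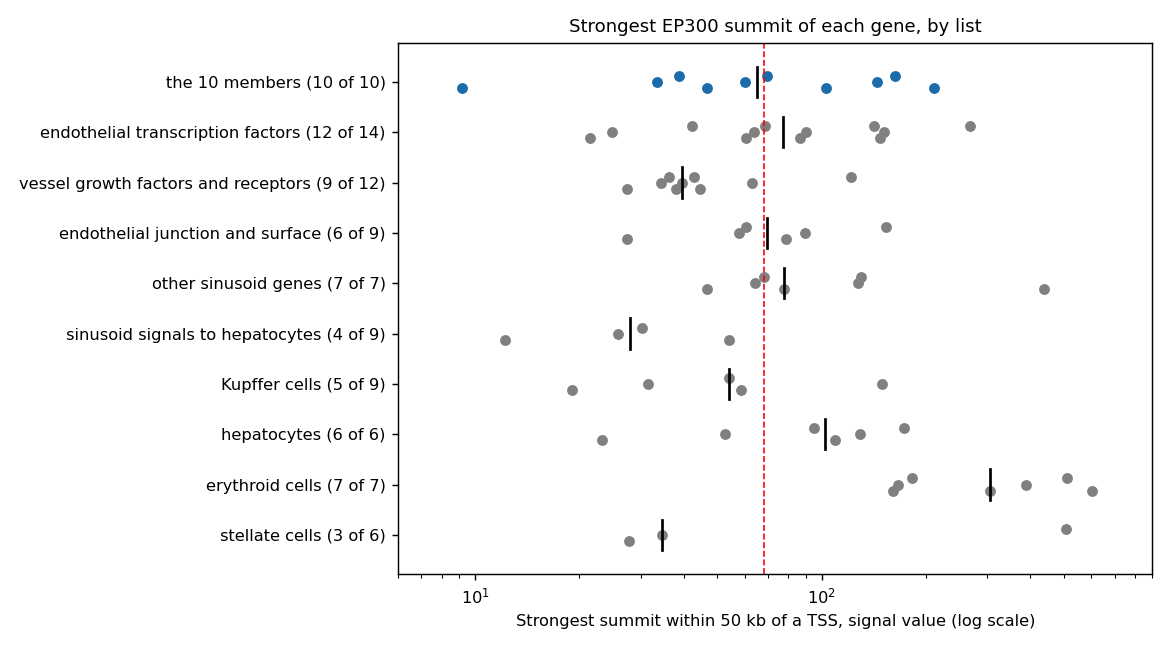
Strongest EP300 summit within 50 kb of each gene (signal value, log scale) by gene list, with the number of genes that had one (blue, the 10 genes); black bars are medians and the red dashed line is the median of all protein-coding genes with a summit, 68.3. The 10 genes spread from 9.14 to 211 around that line, and every erythroid gene lies to the right of it.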

How the data were processed

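EP300 ChIP-seq peak lists of 1 group of 2 replicates were analysed. The descriptions that the authors deposited name mm10, alignments and a control alignment as the source of each list, and both replicates as the source of the optimal and conservative lists, which were filtered by irreproducible discovery rate (IDR). For the aligner, peak caller, thresholds and versions nothing is stated there or in the labels. The signal value (column 7) is a score deposited by the authors, of unstated scale. The lists hold no read counts, so depth is unknown. The list called on both replicates together was not used, because the optimal list carries its signal values. Columns of other samples numbered 0.

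The summit is the start (column 2) plus the offset (column 10), written 1-based. Start sites are those of every GENCODE M21 transcript of a protein-coding gene, and every peak lay inside its GRCm38 chromosome (21 of 21). Exons are those of protein-coding transcripts. The optimal list held 26883 peaks, of which 26844 on chromosomes 1 to 19, X and Y were kept. The gene Tf of the hepatocyte list had no match by symbol and was left out. Python 3.11.15, pandas 2.3.3, pysam 0.24.0 and samtools 1.23.1 were used. Counting and matching were tested on simulated peaks at known distances.

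No measured value was used to choose the 10 genes. Earlier results of these data were known when the 10 genes and all lists were chosen. All 10 genes and, per companion list, up to 3 genes with the strongest summit and the genes without one (where 5 or fewer) are named. No test was made. Shares of all genes or all peaks stand beside counts of genes with a summit, of matched peaks and of motifs, where they were computed. Alternatives were the distance, the list, each replicate alone, the upper 50% of peaks, nearest start sites, coding transcripts and the matching rule.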

Additional observations from a re-analysis of the deposited data

How the results depend on the processing

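No paired analysis was possible because there is 1 group and no contrast. The number of genes with a summit stayed within 8 to 10 of 10 under the 8 alternatives. It was 9 within 10 kb (41.0% of all protein-coding genes), in the conservative list (62.9%), without replicate 1 (66.9%) and without replicate 2 (67.2%), each time without Cdh5, and 8 in the upper 50% of peaks (52.7%), without Cdh5 and Mrc1. It was 10 within 100 kb (76.5%), with nearest start sites only (41.1%) and with coding transcripts (64.4%). The number of summits fell from 69 to 31 within 10 kb, to 27 in the upper 50% of peaks and to 41 with nearest start sites only, each by its own construction. With 1 replicate left out it was 64 to 65, against 95 within 100 kb, 66 in the conservative list, 63 with coding transcripts and, in an alternative chosen after seeing the data, 59 with 1 summit of those within 300 bases. The 66 are all summits of the conservative list near the 10 genes, not only the 55 shared with the optimal list. The strongest peak was the same peak for 6 of 10 genes with nearest start sites only, for 5 without replicate 1, 8 without replicate 2, 9 in the conservative list and 7 with coding transcripts, where Tek, Pecam1 and Mrc1 lost theirs. Without replicate 1 it was another peak or none at Egfl7, Pecam1, Cdh5, Mrc1 and Oit3. Matches in both replicates fell from 67 to 54 with summits within 100 bases (81.5% of all optimal peaks), to 59 with 50% reciprocal overlap (84.9%) and to 48 with any overlapping peak among the highest of each replicate (67.9%). The composite letters, also varied after seeing the data, were at 4 of 41 summits with nearest start sites only, 5 of 55 in the conservative list (2.65% of its shared peaks) and 7 of 69 within 100 bases (4.33% of all summits). Counts of summits at single genes moved by over 1.5 times in 26 of 80 cases. Depth is unknown, so weak or missing summits, as at Cdh5, may not have been detectable.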
